A study of Mus musculus with 4 samples.

Results

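The 33 genes described here encode the steps from glucose uptake through glycolysis to lactate export, the mitochondrial pyruvate carrier and the pentose phosphate pathway. They were taken from a fixed list of symbols, with no threshold on measured values. The list was chosen with earlier results of these data known. Of the 43430 genes in the count table, 32 members were found by symbol in the authors' deposited comparison. Aldoc, which that comparison does not list, was found in the count table by its symbol in the reference annotation. All 33 passed the filter on low counts.

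The data are RNA-seq of sorted thymocytes at the CD4+CD8+ double-positive (DP) stage, when T cell receptor alpha genes rearrange, from mice on the C57BL/6 background. Knockout (KO) animals, 2 in number, have the genotype Uqcrfs1fl/fl; CD4-Cre+. Uqcrfs1 encodes the Rieske subunit of complex III, and Cre is driven by the CD4 promoter. The 2 comparison animals bear the label WT, but the design text names heterozygous littermates, and "WT" is used here for that group. The sources used here give neither the Cre status of the WT group nor the age of the mice.

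Libraries held 34080516 and 31728511 gene counts in KO replicates 1 and 2, and 32846323 and 30408863 in WT replicates 1 and 2. Uqcrfs1 stood at 15.6 and 18.6 CPM in the KO libraries, against 61.4 and 57.2 CPM in the WT libraries (CPM, read counts scaled by the normalised library size). All 8 DP markers examined were detected in every library. Cd4 had 2069 and 2087 CPM in KO, against 1934 and 2092 CPM in WT. Cd8a had 3002 and 2953 CPM in KO, against 3174 and 3225 CPM in WT, and Cd8b1 had 1977 and 1968, against 2118 and 2085. For Cd8a and Cd8b1 both KO values were below both WT values, as for 20.1% of all tested genes. For Arpp21 both were above, as for 20.4%. Of the 8 fitted values 3 were below 0 and 5 above, and 0 passed the adjusted threshold. Of the erythroid markers, Hba-a1 and Hba-a2 had 0 counts in every library. The sum of 8 markers of CD4-CD8- double-negative thymocytes was 132 and 176 CPM in KO, against 103 and 106 CPM in WT. All 7 of these that were tested had fitted values above 0, and Erg, not tested, had 0 counts in WT replicate 1. KO replicate 2 stood apart in several markers of other cells. The myeloid marker Lyz2 had 0.499 and 5.36 CPM in KO, against 0.487 and 0.231 CPM in WT, and Csf1r had 0.117 and 1.32 CPM in KO, against 0.152 and 0.132 CPM in WT. The mature lymphocyte marker Il2rb had 1.20 and 4.79 CPM in KO, against 1.86 and 1.94 CPM in WT, and S1pr1 had 0.528 and 2.71 CPM in KO, against 1.10 and 0.527 CPM in WT. The 8 myeloid markers summed to 17.3 and 26.0 CPM in KO, against 18.3 and 17.3 CPM in WT, and the 6 mature T cell markers to 273 and 285 CPM in KO, against 265 and 262 CPM in WT. The part of such cells in the values below was not tested, and in sorted populations fewer cells of a type and less RNA per cell cannot be told apart. With 2 libraries per group, an exact two-sided permutation test of a single value cannot go below p = 0.333, so tests rest on edgeR's quasi-likelihood fit across all genes.

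Glycolysis splits glucose into pyruvate in the cytosol and yields ATP without oxygen, and lactate dehydrogenase regenerates the NAD+ that it uses. The respiratory chain, in which complex III passes electrons from ubiquinol to cytochrome c, is the other route by which NADH is reoxidised. The pentose phosphate pathway branches from glucose-6-phosphate: its oxidative arm makes NADPH, and its non-oxidative arm makes ribose-5-phosphate and returns carbon to glycolysis. Most DP thymocytes are small resting cells, while the dividing blasts that precede them have a higher demand for both pathways.

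No member passed the test for a difference between KO and WT across all genes. Of 33 members, 0 passed an adjusted p of 0.05, against 3 of 13281 genes, or 0.0226%, and the smallest adjusted p of a member was 0.497, for Ldhb. At an unadjusted p under 0.05 there was 1 member lower in KO, Ldhb, against 4.01% of all tested genes, and 1 higher, Pfkfb4, against 4.4%, or 2 in both directions, against 8.4%. That count of members was 1 with DESeq2 and 6 with no filter on low counts. The 8.4% belongs to the fit reported here. The share of all genes in the other settings is not given, so their counts cannot be set against it. The unadjusted p of Ldhb was 0.0738 without KO replicate 1 and 0.0844 without KO replicate 2, and that of Pfkfb4 was 0.107 with DESeq2 and 0.0524 to 0.121 over left-out libraries. The fitted log2 change was below 0 for 27 of 33 members, against 50.1% of all genes. Its median was -0.039 over the members and -9.8e-05 over all tested genes. Both KO libraries lay below both WT libraries for 12 members, against 20.1% of all genes, and above both for 2, against 20.4%. For the other 19 the groups overlapped.

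The balance of these small differences varied with the library left out, while 16 of 33 members kept their sign without any one library. WT replicate 1 held the highest value of 22 of the 33 members, whereas 30.4% of all tested genes were highest there, and the members summed to 3380 and 3443 CPM in KO, against 3690 and 3402 CPM in WT. Between the WT libraries the median log2 difference of the members, replicate 1 over replicate 2, was 0.12, larger in size than the fitted difference between the groups. Between the KO libraries it was -0.046. Without WT replicate 1, 16 of 33 members were lower in KO and the median was 0.0019. Without KO replicate 1, 20 were lower and the median was -0.016, and without KO replicate 2, 25 were lower and the median was -0.068. Without WT replicate 2, 27 were lower and the median was -0.10, with a smallest adjusted p of 0.0635, for Gapdh. WT replicate 1 also held the highest value of all 12 proliferation markers examined, which summed to 4591 and 4771 CPM in KO, against 5263 and 4498 CPM in WT. Whether the share of dividing cells has a part in the members' values was not tested.

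**Figure D1:**
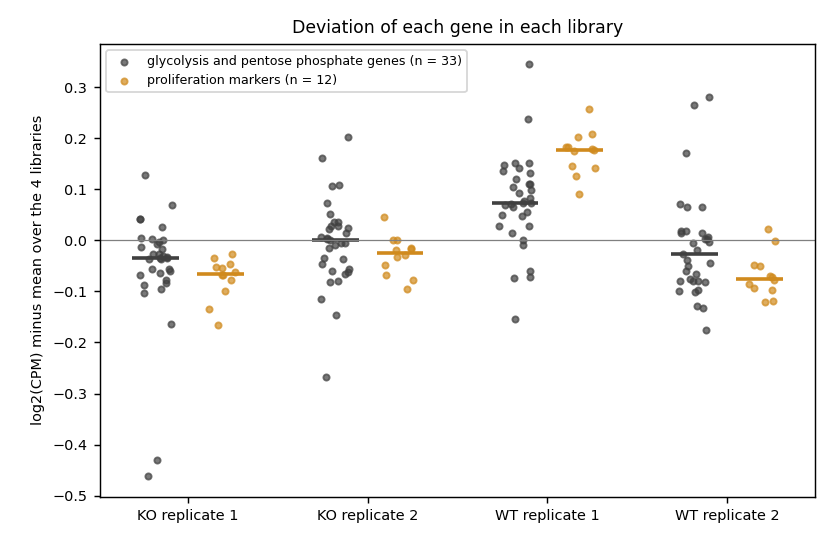
Deviation of log2 CPM from each gene's mean over the 4 libraries (y axis, log2), with the libraries along the x axis. Grey points are the 33 glycolysis and pentose phosphate genes, orange points the 12 proliferation markers, and bars are medians. Both sets lie mostly above 0 in WT replicate 1, where the median of the 33 genes is 0.073, and near or below 0 in the other libraries.

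The intervals of the differences were narrow for most members. The 95% interval of the fitted change lay within a fold of 1.5 in either direction for 30 of 33 members, and within 2 for 32. It left out 0 for 2, Ldhb and Pfkfb4. These are intervals for single genes, not adjusted for the number of genes. The widest belonged to genes near the limit of detection, Aldoc (log2 change -0.60, from -1.44 to 0.24) and Slc16a3 (-0.055, from -0.73 to 0.62).

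**Figure D2:**
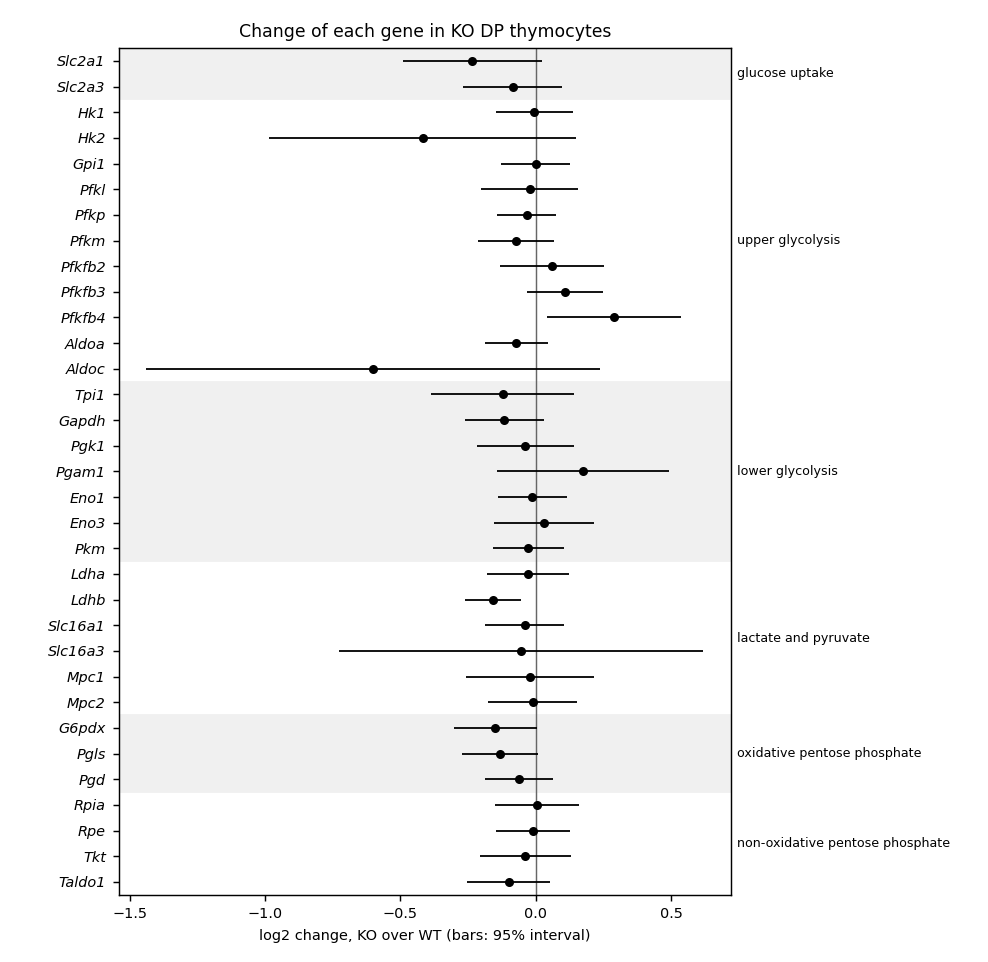
Fitted log2 change in KO over WT (x axis) for each of the 33 genes, in the order of the pathway (y axis), with 95% intervals from edgeR's quasi-likelihood fit on 2 libraries per group. Only the intervals of Pfkfb4, above 0, and Ldhb, below 0, leave out 0, and none of the 33 genes passed the adjusted threshold.

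Levels of different genes were compared as CPM per kilobase of annotated exon. Over the 4 libraries Ldhb was the highest member at 237 CPM per kb, followed by Ldha at 102.7, Taldo1 at 78.8, Gapdh at 77.7 and Pkm at 69.4. The lowest were Hk2 at 0.397, Slc16a3 at 0.254 and Aldoc at 0.241 CPM per kb. The order depended on the length used. On the length of the principal transcript, Gapdh came second at 226 CPM per kb, between Ldhb at 285.5 and Ldha at 192.5. In unscaled CPM, 12 members averaged over 100 and 3 averaged under 3.

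**Figure D3:**
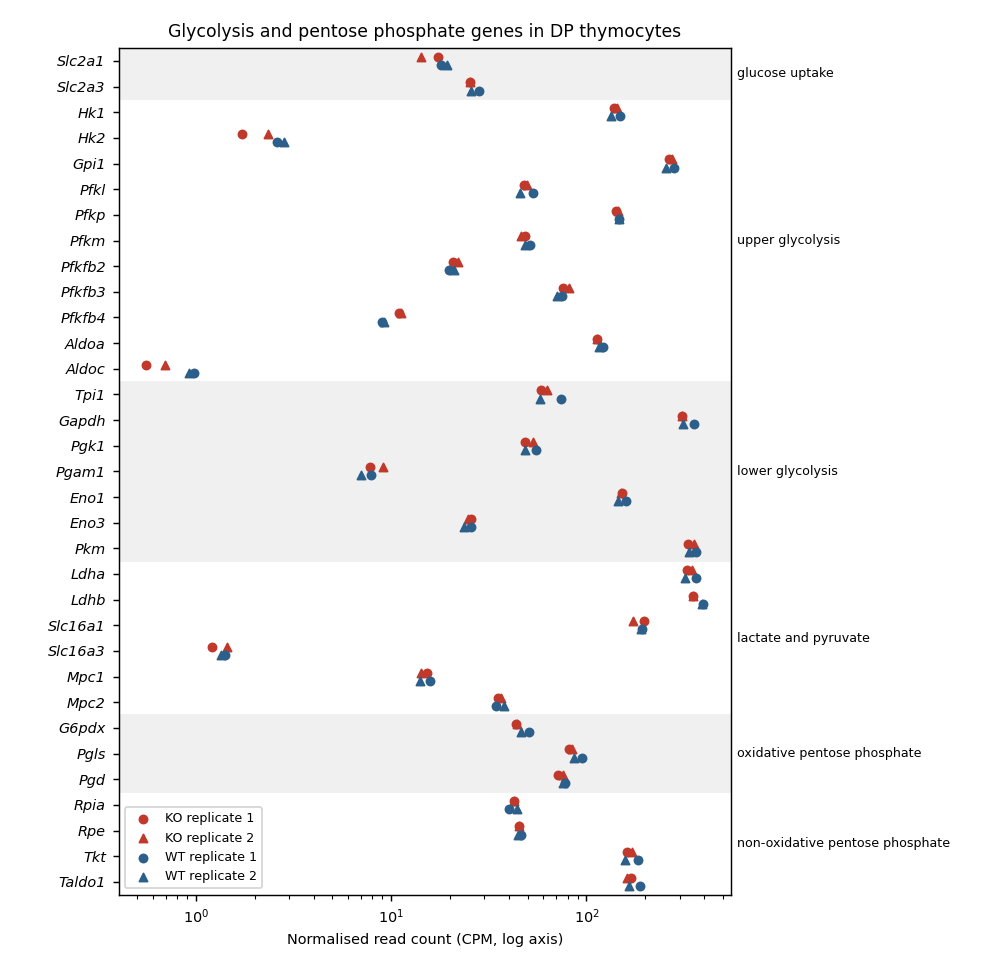
Normalised read counts (CPM, log axis) of the 33 genes in each library, KO in red above WT in blue, circles for replicate 1 and triangles for replicate 2. Levels run from below 1 CPM for Aldoc to 396 CPM for Ldhb, and for most genes the 4 points lie within a small part of that range.

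Glucose enters T cells mainly through GLUT1 and GLUT3, encoded by Slc2a1 and Slc2a3. Slc2a1 (chr4:119108711-119137330 in mm10) had 17.4 and 14.2 CPM in the KO libraries, against 18 and 19.3 CPM in the WT libraries. The groups did not overlap, with KO replicate 2 the lowest, and the fitted log2 change was -0.23 (SE 0.11, 95% interval -0.49 to 0.02, adjusted p = 0.618). It was -0.39 without KO replicate 1 and -0.095 without KO replicate 2. Slc2a3 averaged 25.4 ± 0.108 CPM in KO and 26.9 ± 1.81 CPM in WT (SD, n = 2 each), with both KO values below both WT values. Which gene leads this step depends on the length used. Slc2a1 held 56.2% ± 3.44 of their summed CPM per kb in KO and 58.8% ± 2.78 in WT on exon unions, but 43.0% ± 3.42 in KO and 45.7% ± 2.85 in WT on principal transcripts.

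Hexokinase, which traps glucose as glucose-6-phosphate, was almost entirely Hk1. This isozyme, the form usual in resting cells, had 138 and 144 CPM in KO, against 149 and 133 CPM in WT, and the groups overlapped (log2 change -0.0051, SE 0.06, 95% interval -0.15 to 0.14). Hk1 held 98.0% ± 0.358 of the step in KO and 97.3% ± 0.371 in WT on exon unions. Hk2, the inducible isozyme of activated T cells, had 1.73 and 2.33 CPM in KO, against 2.59 and 2.83 CPM in WT. Both KO values were below both WT values, and the change of -0.42 had a standard error of 0.25 (adjusted p = 0.673). It was -0.22 without KO replicate 1 and -0.64 without KO replicate 2. Glucose-6-phosphate then passes to Gpi1, the isomerase, which averaged 269 CPM in both groups, from 264 and 274 CPM in KO and 281 and 257 CPM in WT. Its fitted log2 change of -3.6e-04 was the smallest in size of all members, with an interval of -0.13 to 0.13.

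Phosphofructokinase, the committed step of glycolysis, was spread over its 3 genes. Pfkp, the platelet form, had the most reads, at 142 and 145 CPM in KO and 147 and 147 CPM in WT. Pfkm, the muscle form, had 48.3 and 46.4 CPM in KO, against 51.2 and 48.5 CPM in WT. Pfkl, the liver form, had 47.9 and 49.5 CPM in KO, against 53.2 and 45.7 CPM in WT. The order per kilobase was not stable to the choice of length. Pfkm held 44.05% ± 1.23 of the step in KO and 44.8% ± 0.0905 in WT on exon unions, while on principal transcripts Pfkp led with 54.0% ± 0.623 in KO and 53.7% ± 1.75 in WT. The fitted log2 changes were -0.034 for Pfkp, -0.074 for Pfkm and -0.023 for Pfkl, and all 3 intervals held 0. KO lay below WT for Pfkp and Pfkm, and the groups overlapped for Pfkl.

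The PFKFB enzymes make and break fructose-2,6-bisphosphate, the activator of phosphofructokinase. Among the members, this was the only step of several genes in which all fitted values were above 0. Pfkfb1, a gene of the same family that is no member, had a fitted value below 0 (log2 change -0.063, SE 0.21). It had 3.29 and 2.84 CPM in KO, against 3.11 and 3.29 CPM in WT. Pfkfb4 (chr9:108991902-109032197, plus strand) had 11.0 and 11.2 CPM in the KO libraries, against 9.02 and 9.16 CPM in the WT libraries. The groups were separate and each pair of replicates lay close together, and the log2 change was 0.29 (SE 0.11, 95% interval 0.04 to 0.54, unadjusted p = 0.0272 and adjusted p = 0.547 in edgeR's quasi-likelihood test). Pfkfb3, the form with the highest ratio of kinase to phosphatase activity, had 75.8 and 81.7 CPM in KO, against 75.3 and 70.8 CPM in WT. Its KO values were also both above the WT values, though KO replicate 1 and WT replicate 1 were nearly equal (log2 change 0.11, SE 0.06, adjusted p = 0.662). Pfkfb2 overlapped between groups, at 21.3 ± 0.91 CPM in KO and 20.5 ± 0.881 CPM in WT (SD, n = 2 each). Pfkfb3 led this step with 66.6% ± 0.488 in KO and 67.3% ± 1.63 in WT on exon unions, and Pfkfb4 held 14.6% ± 0.433 in KO and 12.99% ± 0.395 in WT. On the deposited length the order turned, with Pfkfb4 at 58.5% ± 0.829 in KO and 55.2% ± 0.729 in WT.

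The 250 bases upstream of the annotated start of Pfkfb4 and Pfkfb3 are shown as the only members with KO above WT in every library. Both genes are known targets of the hypoxia-inducible factors, which bind ACGTG or GCGTG, and the E-box CACGTG is bound by MYC and its relatives. Sequences are from RefSeq on GRCm38.p6, read 5′ to 3′ on the gene's strand, with matches to these motifs on either strand in capitals. The Pfkfb4 window is chr9:108991652-108991901 on the plus strand, and the Pfkfb3 window is chr2:11502091-11502340 on the minus strand.
Pfkfb4: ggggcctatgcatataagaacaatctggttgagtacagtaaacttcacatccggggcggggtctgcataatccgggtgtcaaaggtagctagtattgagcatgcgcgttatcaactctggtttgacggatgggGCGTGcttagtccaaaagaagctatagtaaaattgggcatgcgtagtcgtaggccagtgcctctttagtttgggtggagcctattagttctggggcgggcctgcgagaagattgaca
Pfkfb3: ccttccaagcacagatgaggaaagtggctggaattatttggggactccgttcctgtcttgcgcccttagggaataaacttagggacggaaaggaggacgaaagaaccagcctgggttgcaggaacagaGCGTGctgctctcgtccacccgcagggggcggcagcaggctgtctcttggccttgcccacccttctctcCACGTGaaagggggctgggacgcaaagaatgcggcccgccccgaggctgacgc
The Pfkfb4 window holds 1 match to GCGTG, 117 bases before the RefSeq start. The principal transcript of Pfkfb4 in GENCODE starts 124 bases before that start, inside the window, so the match lies downstream of the GENCODE start. The Pfkfb3 window holds 1 GCGTG at 122 bases and 1 CACGTG, which contains ACGTG on both strands, at 53 bases. ACGTG or GCGTG occurs in 38.6% of all 32851 promoter windows of this length and in 56% of the 12109 windows of tested genes, and CACGTG in 6.02% and 8.29%. Of 32 members with a window, 27 held ACGTG or GCGTG and 3 held CACGTG. These matches describe the letters of the windows and show no binding.

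Aldolase, which cleaves fructose-1,6-bisphosphate, was Aldoa in all libraries, with 99.5% ± 0.0756 of the step in KO and 99.3% ± 0.00482 in WT on exon unions. Aldoa, the muscle-type gene used by most tissues, had 114 and 113 CPM in KO, against 122 and 116.5 CPM in WT (log2 change -0.071, SE 0.05, adjusted p = 0.711). Aldoc, the brain-type gene, had 19 and 22 counts in KO, against 32 and 28 in WT, or 0.557 and 0.693 CPM in KO and 0.9748 and 0.9222 CPM in WT. Both KO values were below both WT values for Aldoa and for Aldoc.

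Lower glycolysis, from triose phosphates to pyruvate, had fitted values between -0.12 and 0.17. Gapdh, whose enzyme makes the first NADH, had 308 and 308 CPM in the KO libraries, against 356 and 312 CPM in the WT libraries. Only WT replicate 1 stood apart, and the log2 change was -0.12 (SE 0.06, adjusted p = 0.653), running from -0.21 without WT replicate 2 to -0.017 without WT replicate 1. Tpi1, triosephosphate isomerase, had the same shape at 58.7 and 62.8 CPM in KO, against 74.4 and 57.7 CPM in WT. Its WT values lay on both sides of the KO values.
Pgk1, which makes the first ATP, had 48.3 and 53.1 CPM in KO, against 55.4 and 48.7 CPM in WT. Pgam1, the mutase, had a log2 change of 0.17 (SE 0.14), from 7.77 and 9.11 CPM in KO and 7.92 and 7.02 CPM in WT. The groups overlapped for both genes, and the value of Pgam1 ran from 0.058 without KO replicate 2 to 0.28 without KO replicate 1.
Enolase was led by Eno1, the ubiquitous form, with 152 and 150.5 CPM in KO, against 160 and 146 CPM in WT. Eno3, the muscle form, averaged 25.1 ± 0.616 CPM in KO and 24.6 ± 1.58 CPM in WT (SD, n = 2 each). Eno1 held 66.1% ± 0.349 of the step in KO and 66.75% ± 0.0114 in WT on exon unions. Its share was larger on principal transcripts, at 82.3% ± 0.227 in KO and 82.7% ± 0.00736 in WT. On the deposited length it was 80.4% ± 0.245 in KO and 80.9% ± 0.00797 in WT. Pkm, pyruvate kinase, had 332 and 355 CPM in KO, against 364.5 and 336 CPM in WT, with a log2 change of -0.028 (95% interval -0.16 to 0.10). Counts per gene do not separate its PKM1 and PKM2 splice forms.

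Several of these genes have near-identical copies that could take or lose reads. Gapdh had 69 annotated copies with at least 95% identity over at least 50% of its coding sequence, and these held 1607 counts over the 4 libraries, against 41464 for Gapdh itself. The copies of Eno1, Eno1b and Gm4735, were 99.4% and 99.6% identical to it over the whole coding sequence and held 6 counts. Pgk1 had 2 copies with 4 counts and Pgam1 had 1 with 1 count, all identical at 100% over the aligned coding sequence. The line for alignments that are not unique held 23.2% to 24.7% of alignments per library, and reads shared by a gene and its copy would fall there. Levels of Gapdh, Eno1, Pgk1 and Pgam1 are therefore uncertain. Mpc1 had a copy, Mpc1-ps, with 297 counts against its own 1910. For Ldhb the copy Gm5514 held 25 counts against 47984, for Gpi1 the copy Gm1840 held 79 against 34715, and for Pfkfb2 the copy Gm29427 held 5 against 2693. Exons overlap another gene over 17.9% of their length for Rpe (Kansl1l, opposite strand), 17.4% for Pfkfb2 (Gm29427, same strand), 11.5% for Gpi1 (Gm26762, opposite strand) and 10.2% for Pfkm (Gm26513, same strand).

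Lactate dehydrogenase was the step with the most reads and held the member with the smallest p. Ldhb (chr6:142490249-142507957, minus strand) encodes the H subunit, which is abundant in oxidative tissues and favours lactate oxidation. It had 352 and 351 CPM in the KO libraries, against 396 and 389 CPM in the WT libraries. The KO values were both below the WT values and the replicates of each group lay close together, with a log2 change of -0.16 (SE 0.05, 95% interval -0.26 to -0.06, unadjusted p = 0.00688 and adjusted p = 0.497 in edgeR's quasi-likelihood test). The value ran from -0.17 to -0.14 over left-out libraries. In the authors' deposited table Ldhb has a log2 change of -0.16 and an adjusted p of 0.285, and no member carries a mark there for a higher or lower gene (46 of its 11536 genes, or 0.399%, do).
Ldha encodes the M subunit, which favours lactate formation and is a target of MYC and hypoxia-inducible factors. It had 326 and 348 CPM in KO, against 365 and 321 CPM in WT, and the groups overlapped (log2 change -0.028, 95% interval -0.18 to 0.12). The ratio of Ldha to Ldhb CPM, which does not depend on library scaling, was 0.924 and 0.990 in KO, against 0.921 and 0.826 in WT. The groups did not overlap, but KO replicate 1 and WT replicate 1 were nearly equal, and the exact test cannot go below p = 0.333. Other ratios within a step were also computed. That of Pfkfb4 to Pfkfb3 did not overlap between groups either. Those of Slc2a1 to Slc2a3, Slc16a1 to Slc16a3 and Mpc1 to Mpc2 overlapped. Ldhb led the step at 68.8% ± 1.04 in KO and 70.7% ± 1.59 in WT on exon unions, and at 58.6% ± 1.18 in KO and 60.8% ± 1.83 in WT on principal transcripts.

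The upstream windows of the lactate dehydrogenase genes are shown as a pair whose ratio was compared, under the same rules. The Ldhb window is chr6:142507958-142508207 on the minus strand, and the Ldha window is chr7:46846832-46847081 on the plus strand.
Ldhb: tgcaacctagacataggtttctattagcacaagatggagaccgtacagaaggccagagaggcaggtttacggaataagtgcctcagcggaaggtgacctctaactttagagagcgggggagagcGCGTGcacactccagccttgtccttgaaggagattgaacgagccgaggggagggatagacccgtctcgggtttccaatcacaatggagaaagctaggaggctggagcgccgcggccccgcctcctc
Ldha: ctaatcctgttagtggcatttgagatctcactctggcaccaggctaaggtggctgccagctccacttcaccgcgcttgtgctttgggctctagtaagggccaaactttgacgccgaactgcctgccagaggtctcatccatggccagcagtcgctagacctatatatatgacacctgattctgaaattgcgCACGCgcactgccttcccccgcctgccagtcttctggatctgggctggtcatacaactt
Each window holds 1 match, GCGTG at 126 bases before the start of Ldhb and its reverse complement CACGC at 59 bases before the start of Ldha. Neither holds ACGTG or CACGTG.

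**Figure D4:**
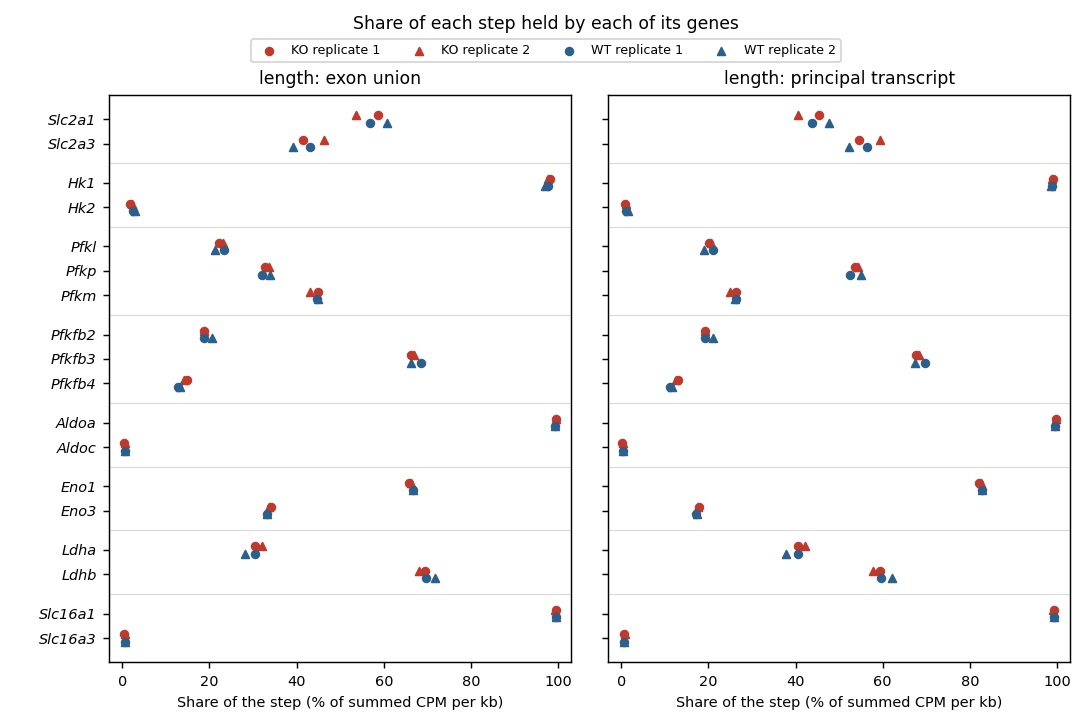
Share of each step (x axis, percent of the summed CPM per kb of its listed genes) held by each gene (y axis) in each library, KO in red above WT in blue, with gene length taken as the exon union (left) or the principal transcript (right). Hk1, Aldoa and Slc16a1 hold over 97% of their steps on both lengths, while the leading gene of glucose uptake and of phosphofructokinase differs between the panels.

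Lactate leaves and enters cells through MCT1 and MCT4, and here the step was Slc16a1, the gene of MCT1. It had 197 and 174 CPM in the KO libraries, against 192 and 190 CPM in the WT libraries. The KO values lay on both sides of the WT values (log2 change -0.042, SE 0.06), and Slc16a1 held 99.4% of the step in both groups on exon unions. Slc16a3, the gene of MCT4, the exporter typical of strongly glycolytic cells, had 1.20 and 1.45 CPM in KO, against 1.40 and 1.35 CPM in WT. Bsg, the basigin chaperone that brings MCT1 to the membrane, is no member. Both its KO values were below both WT values, as for 20.1% of all tested genes. Bsg had 160 and 154 CPM in KO, against 177 and 167 CPM in WT. Its log2 change was -0.13 (SE 0.05, unadjusted p = 0.0338 and adjusted p = 0.564 in edgeR's quasi-likelihood test). Emb, another partner gene examined, overlapped between groups (log2 change -0.039, SE 0.05). It had 178 and 171 CPM in KO, against 175 and 183 CPM in WT.

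The mitochondrial pyruvate carrier is a complex of MPC1 and MPC2, which admits pyruvate to the matrix. Mpc1 had 15.2 and 14.2 CPM in KO, against 15.8 and 14.0 CPM in WT, and Mpc2 had 35.1 and 36.5 CPM in KO, against 34.5 and 37.7 CPM in WT. Both overlapped between groups, with log2 changes of -0.021 (95% interval -0.26 to 0.22) and -0.012 (-0.18 to 0.15). Exons of Mpc1 overlap those of 4930506C21Rik on the opposite strand over 23.1% of their length, and no source used here gives the strand setting of the counting, so its reads are uncertain beyond those of its copy.

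In the oxidative arm of the pentose phosphate pathway, all 3 members had both KO values below both WT values, as did both glucose transporters and 20.1% of all tested genes. G6pdx, glucose-6-phosphate dehydrogenase, the entry step, had 43.5 and 44.2 CPM in the KO libraries, against 50.8 and 46.3 CPM in the WT libraries. The log2 change was -0.15 (SE 0.07, 95% interval -0.30 to 0.00, unadjusted p = 0.0540 and adjusted p = 0.602). Pgls, the lactonase, had 81.2 and 84.8 CPM in KO, against 95.4 and 86.6 CPM in WT, with a change of -0.13 (SE 0.06, adjusted p = 0.618). Pgd, which releases ribulose-5-phosphate, had 71.6 and 75.4 CPM in KO, against 77.6 and 75.8 CPM in WT.
All 3 were highest in WT replicate 1, and without it their values were -0.079 for G6pdx, -0.060 for Pgls and -0.045 for Pgd. The arm summed to 200 ± 5.63 CPM in KO and 216 ± 10.7 CPM in WT (SD, n = 2 each). Exons of G6pdx overlap Ikbkg on the opposite strand over 13.6% of their length, and those of Pgls overlap Fam129c on the same strand over 20.6%.

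The non-oxidative arm showed no member with separate groups. Tkt, transketolase, had 162 and 171 CPM in KO, against 184 and 157 CPM in WT. Taldo1, transaldolase, had 169 and 161 CPM in KO, against 189 and 165 CPM in WT, the highest again in WT replicate 1. Its log2 change was -0.10 (SE 0.07), and 0.0019 without that library. Rpia, which makes ribose-5-phosphate, had 42.3 and 42.3 CPM in KO, against 40.2 and 44.2 CPM in WT. Rpe, the epimerase, had 45.09 and 45.04 CPM in KO, against 46.1 and 44.7 CPM in WT. For these 2 the KO replicates were nearly equal and lay between the WT replicates, with log2 changes of 0.0061 and -0.010.

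By arm, the fitted values were below 0 for 2 of 2 glucose transporters (median log2 change -0.16), 8 of 11 genes of upper glycolysis (-0.023), 5 of 7 of lower glycolysis (-0.028), 6 of 6 of lactate and pyruvate (-0.035), 3 of 3 of the oxidative arm (-0.13) and 3 of 4 of the non-oxidative arm (-0.025). The median over all tested genes was -9.8e-05. These counts come from the fit with WT replicate 1 and carry no test of their own.

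A list of 65 other genes of these pathways was examined in the same fit. Of these, 43 were tested, 23 were lower and 20 higher in KO with a median log2 change of -0.013, and 0 passed the adjusted threshold. At an unadjusted p under 0.05 there were 2 lower and 1 higher, 3 of 43 in all, against 8.4% of all tested genes, a share close to that background. The lower ones were Bsg, given above, and Khk, ketohexokinase, which phosphorylates fructose, with 9.27 and 8.57 CPM in KO, against 12.4 and 10.4 CPM in WT (log2 change -0.35, SE 0.13, adjusted p = 0.547). The higher one was Slc16a6, a monocarboxylate transporter family member, with 40.1 and 43.6 CPM in KO, against 38.3 and 33.3 CPM in WT (log2 change 0.22, SE 0.08, adjusted p = 0.547).
Of 24 further isozymes and transporters, 6 had enough counts to be tested. Among those that did not, Pgk2 had 0 counts in every library, and Pklr had 1 count and Ldhc 2 over all libraries. Of the 13 tested regulators, 8 were lower and 5 higher. Hif1a, the oxygen-regulated subunit gene, had a log2 change of 0.091 (SE 0.05), Myc of -0.084 (SE 0.11) and Pdk1, whose kinase holds back pyruvate dehydrogenase, of -0.065 (SE 0.05). These 3 were named for their known roles, after their values were seen.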

How the data were processed

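The authors deposited raw counts per Ensembl gene for 4 libraries, made with Trimmomatic 0.33, STAR 2.5.2 on mm10 and HTSeq per the submitters' processing notes. The series table and the per-sample files hold the same counts (0 differing cells over 43430 genes). The sources used here give no HTSeq mode, strand setting or annotation release. HTSeq's summary lines were left out of library sizes. Reads outside exons were 20.6% and 19.9% of uniquely aligned reads in KO, and 17.2% and 18.6% in WT. The authors' deposited comparison gives CPM (counts scaled by library total), log2 fold changes, a likelihood ratio score, and p-values and adjusted p-values. The length column deposited with the counts exceeds the genomic span of 4 members and was used only as an alternative gene length.

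Symbols came from the reference for 42462 of the 43430 genes and from the authors' table for 46 more. Here edgeR 4.0.16 (R 4.3.3) was run with TMM factors, a low-count filter (filterByExpr, count minimum 10 and total minimum 15) and a robust quasi-likelihood F test, with group as the only term. P-values were Benjamini-Hochberg adjusted over 13281 genes, with 0.05 as the threshold. CPM use TMM-scaled library sizes, and SEs are |log2 change| over the root of F. Positive log2 changes are higher in KO. The script was tested on simulated data. Whether the libraries of a group come from separate litters or preparations is not given, so p-values measure only the spread between these samples.

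Gene lengths are unions of exons in GENCODE M21 (mm10), with the longest transcript, the principal transcript and the deposited length as alternatives. Copies were sought with blastn among annotated transcripts. Upstream windows come from RefSeq (GRCm38.p6), at the annotated start nearest the principal transcript's. Named were all members, with each library's values for the leading gene of a step and for members with an unadjusted p under 0.05. Other pathway genes were named where their unadjusted p was under 0.05. Pfkfb1 and Emb were named beside related genes, after their values were seen. Alternatives were RLE factors, library totals, no filter, 1 CPM in 2 libraries, DESeq2 1.42.0, edgeR's exact and likelihood ratio tests, each library left out, and the replicate number as a block. The members and lists were chosen with earlier results of these data known.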

Additional observations from a re-analysis of the deposited data

How the results depend on the processing

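No member passed the adjusted threshold under any of the 12 alternative settings. The count of genes called among all genes was 3 in the fit reported here, and it was 191 with no filter, 24 with DESeq2, 81 with edgeR's exact test, 102 with its likelihood ratio test and 10 to 35 over left-out libraries. The cause was not tested. The shared replicate numbers in the titles are not said to pair mice, and same-numbered libraries deviated together with a correlation of 0.0912 across genes. With the replicate number as a block, 27 genes and 0 members were called. The median log2 change of the members ran from -0.10 without WT replicate 2 to 0.0019 without WT replicate 1. The log2 change of 17 members changed sign when a library was left out, and that of Gpi1 also with library totals (0.0013) and with the replicate block (0.00081). The range was -0.083 to 0.078 for Hk1, -0.064 to 0.067 for Gpi1, -0.13 to 0.092 for Pfkl, -0.29 to 0.073 for Tpi1, -0.13 to 0.058 for Pgk1, -0.077 to 0.055 for Eno1, -0.033 to 0.097 for Eno3, -0.086 to 0.032 for Pkm, -0.12 to 0.067 for Ldha, -0.11 to 0.072 for Mpc1, -0.033 to 0.013 for Rpe, -0.15 to 0.081 for Tkt and -0.20 to 0.0019 for Taldo1, with the lowest without WT replicate 2 and the highest without WT replicate 1. The range was -0.14 to 0.048 for Slc16a1, with the lowest without KO replicate 1 and the highest without KO replicate 2. The range was -0.19 to 0.074 for Slc16a3, with the lowest without KO replicate 2 and the highest without KO replicate 1. The range was -0.076 to 0.054 for Mpc2 and -0.062 to 0.076 for Rpia, with the lowest without WT replicate 1 and the highest without WT replicate 2. The block changed no other call among the members. Aldoc is not tested with the filter of 1 CPM in 2 libraries. The widest intervals were those of Aldoc, Slc16a3 and Hk2, the members with the fewest counts, and the parts of counting error and of spread between libraries were not separated. Of members that kept their sign, values ran over left-out libraries from -0.15 to -0.015 for Slc2a3, -0.052 to -0.016 for Pfkp, -0.11 to -0.033 for Pfkm, 0.016 to 0.10 for Pfkfb2, 0.054 to 0.16 for Pfkfb3, -0.10 to -0.038 for Aldoa, -0.21 to -0.079 for G6pdx, -0.20 to -0.060 for Pgls and -0.097 to -0.026 for Pgd.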
